A study of Mus musculus with 6 samples.

Results

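The genes described here encode the Wnt ligands, their Frizzled and LRP receptors, the secreted proteins that block or amplify them and 3 genes of the nuclear response, in ear skin of mice that lost the VEGF receptor gene Vegfr2 from endothelium. They were chosen by symbol, with earlier results of these data known, and had to hold 10 or more counts in at least 3 of the 6 libraries. Of 49 table entries with a matching symbol, 43 met that minimum, out of 18422 genes in the table. The other 6 (Wnt1, Wnt7a, Wnt8a, Wnt8b, Wnt9b and Dkk1) had between 0 and 7 counts in each library.

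RNA sequencing of poly(A) RNA gave 3 libraries of ecko mice, which carried an endothelial knockout of Vegfr2, and 3 libraries of control littermates. All mice were at postnatal day 21 and all were given tamoxifen, the drug that switches on the deletion. The series describes tamoxifen courses from postnatal day 1 (60 μg per day) or day 10 (200 μg per day), and the sources used here give neither the course of these mice nor the Cre driver and alleles. The tissue was whole ear skin, a mixture of epidermis, dermis, hair follicles, cartilage, muscle, fat and vessels, so fewer cells of a type and less RNA per cell cannot be told apart. The titles number the libraries without naming animals, and p-values set the difference between groups against the spread within groups of 3 libraries each.

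Libraries held 17255416 to 18054696 estimated counts, and 14866 genes were tested, with all 43 Wnt pathway genes among them. The targeted gene, whose official symbol is Kdr, had 58, 37 and 42 counts in ecko libraries and 475, 511 and 595 in control libraries, with the low counts in the libraries labelled as knockouts. Y-linked reads put 4 libraries as male and the third library of each group as female. Of 15 endothelial marker genes 11 fell and none rose, and their summed level was 337 to 344 CPM, read counts scaled to a common library total, in ecko skin and 508 to 562 CPM in control skin.

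Wnt proteins are lipid-modified secreted signals. They bind a Frizzled receptor together with the co-receptor LRP5 or LRP6, which stabilises beta-catenin, and beta-catenin then switches on genes with the DNA-binding factors of the TCF and LEF family. Secreted frizzled-related proteins and WIF1 bind the ligands, Dickkopf proteins act on the LRP co-receptors, and R-spondins with their LGR receptors keep Frizzled receptors at the cell surface. In skin the pathway is known for hair follicle formation and cycling and for the epidermal stem cell layer, and in endothelium for barrier vessels of the brain and retina.

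None of the 43 Wnt pathway genes rose or fell by the edgeR quasi-likelihood test at a threshold of 0.05, with p adjusted over all genes by Benjamini-Hochberg, where 1.76% of all genes tested were called. The smallest adjusted p among them was 0.173, for Sfrp4. DESeq2 and limma-voom also called 0 of the 43, where they called 2.77% and 1.59% of all genes. Before adjustment, 4 of the 43 (9.3%) had p under 0.05 by edgeR, where 15.4% of all genes did, and the difference between these shares was not tested. By direction these were 2 higher, where 7.41% of all genes were, and 2 lower, where 7.95% were. The ecko and control libraries did not overlap for 4 of the 43 (9.3%), where 21.0% of all genes had no overlap. Of these 4, 2 were higher (Axin2 and Rspo2, background 10.2%) and 2 lower (Fzd4 and Sfrp4, background 10.8%). Log2 fold changes (ecko over control) lay above 0 in 21 and below 0 in 22, with a median of -0.01 and a range of -0.58 to 0.46. Over all 14866 genes the median was 0.00.

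The precision of these values was set by 3 libraries a group. The 95% interval of the log2 fold change stayed inside -1 to 1 for 41 of the 43 genes and inside -0.5 to 0.5 for 31. The 2 genes with intervals beyond a doubling or halving were the weakly counted Wnt3a (-1.18 to 0.32) and Rspo2 (-0.19 to 1.11). A missed threshold therefore leaves room for changes of the size of each interval.

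**Figure D1:**
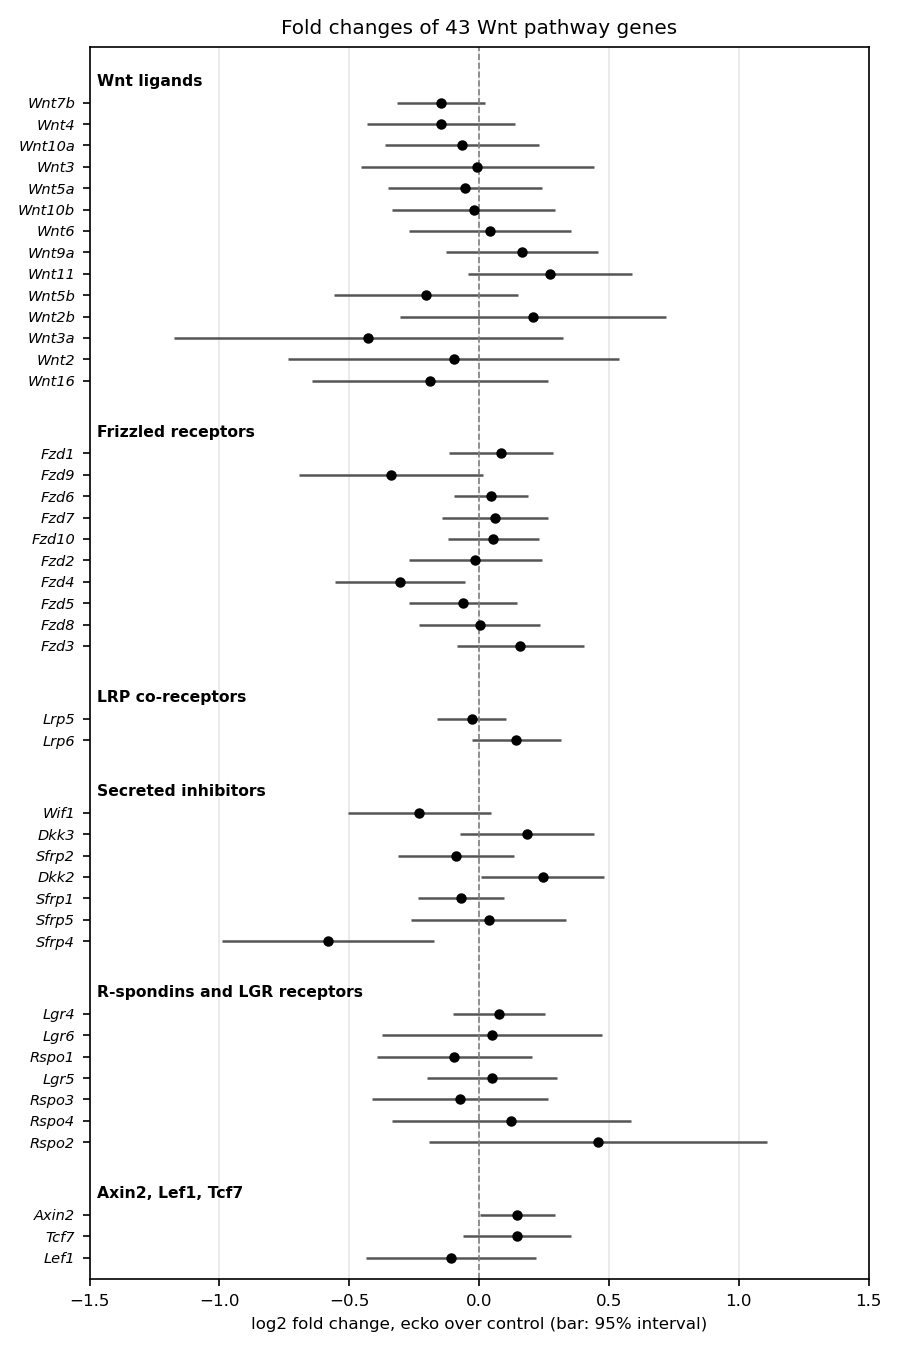
Log2 fold changes (ecko over control, horizontal axis) of the 43 Wnt pathway genes, grouped by role and ordered by level within a role, with points for the edgeR estimate and bars for the 95% interval. The intervals of Sfrp4, Fzd4, Dkk2 and Axin2 exclude 0 before adjustment over all genes, and none of the 43 passed after it.

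Levels per transcript length, given as TPM (counts divided by exon length and scaled to a common total per library), put a secreted inhibitor far above all else. Wif1, which binds Wnt ligands outside the cell, stood at 506 to 742 TPM over the 6 libraries, and no other of the 43 genes reached its lowest value. Dkk3, a divergent member of the Dickkopf family, was next at 75.5 to 120 TPM. Neighbours in the order of TPM overlapped in their ranges from Dkk3 through Fzd1 (69.7 to 91.1 TPM) down to Fzd2 (24.6 to 35.0 TPM), and again from Wnt10a to Wnt16. Rspo2 was lowest, at 0.522 to 1.10 TPM.

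**Figure D2:**
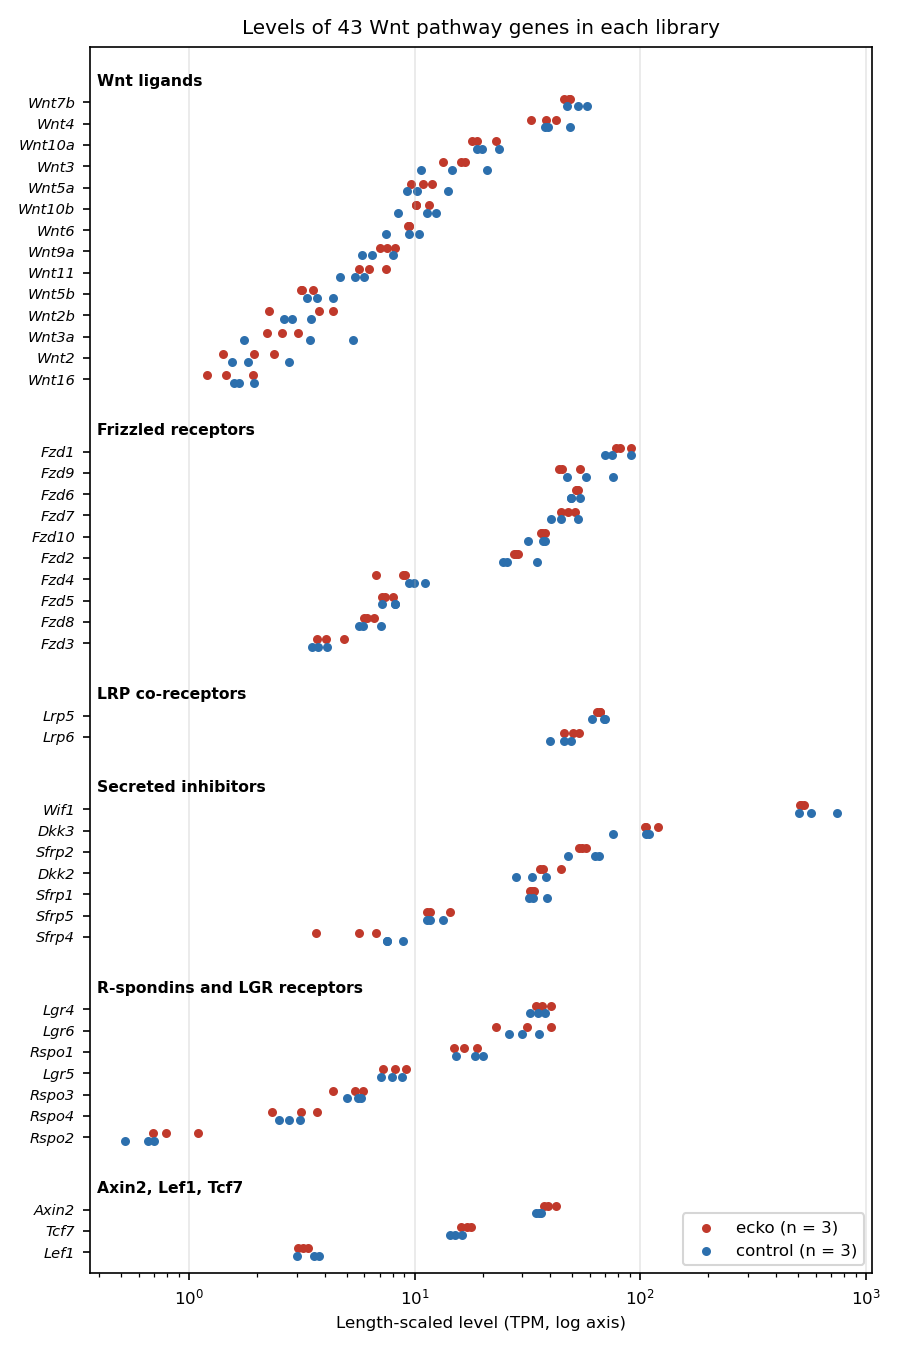
Length-scaled level (TPM, log axis) of each of the 43 genes in each library, with ecko points above control points. Wif1 at 506 to 742 TPM lies apart from the rest, and the ecko and control points overlap in all but Fzd4, Sfrp4 and Axin2.

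Among the 14 Wnt ligands, Wnt7b, a ligand of epidermis and hair follicle, and Wnt4, a ligand also made by keratinocytes, were the highest by TPM. Wnt7b made up 26.4% to 27.0% of the summed ligand TPM in ecko libraries and 27.0% to 28.7% in control libraries, and Wnt4 made up 19.1% to 23.0% in ecko and 19.1% to 25% in control libraries. Wnt10a, Wnt3, Wnt5a and Wnt10b followed, and the lowest of these, Wnt10b, averaged 10.6 TPM in ecko and 10.8 TPM in control skin. Wnt2, Wnt16, Wnt3a, Wnt2b and Wnt5b stayed at or under 5.34 TPM in every library.

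No ligand gene passed the test. Of the 14, 4 had log2 fold changes above 0 and 10 below, with a median of -0.06. The summed ligand level was 284, 271 and 256 CPM in ecko libraries and 299, 254 and 308 CPM in control libraries, so ecko values lay inside the control range.

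Wnt7b had 1544, 1572 and 1441 counts in ecko libraries (89.5, 87.0 and 80.6 CPM), against 1671, 1504 and 1808 in control libraries (96.5, 85.6 and 103 CPM). Control 2 lay below ecko 1 and ecko 2, and the groups overlapped (log2 fold change -0.15, SE 0.08, edgeR adjusted p = 0.400). Wnt11, a ligand that mainly signals without beta-catenin, had 10.7, 8.02 and 8.67 CPM in ecko libraries and 7.79, 6.60 and 8.28 CPM in control libraries. Ecko 1 was the highest and control 3 lay above ecko 2 (log2 fold change 0.27, SE 0.14, edgeR adjusted p = 0.401).

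Wnt3a, the classical beta-catenin ligand, had 49, 43 and 57 counts in ecko libraries and 65, 33 and 100 in control libraries. The controls spanned the ecko values on both sides and differed 3.02-fold among themselves in CPM (log2 fold change -0.43, SE 0.33, edgeR adjusted p = 0.613). Without control 3 the Wnt3a value was -0.01, and without control 2 it was -0.75. Wnt5b, another ligand of the branch without beta-catenin, had 58, 66 and 57 counts in ecko and 61, 67 and 78 in control libraries, which overlapped (log2 fold change -0.20, SE 0.16, edgeR adjusted p = 0.605).

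Groups overlapped for the other 10 ligand genes too. Among them Wnt2b, at 0.21 (SE 0.23), and Wnt16, at -0.19 (SE 0.20), were the farthest from 0 on the log2 scale, and Wnt3, at -0.01 (SE 0.20), was the nearest. Wnt3 varied more between controls than between groups, at 12.8 to 24.9 CPM in control libraries beside 16.5 to 20.1 CPM in ecko libraries.

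The 10 Frizzled receptor genes had a summed level of 515, 511 and 528 CPM in ecko libraries and 505, 500 and 547 CPM in control libraries. Fzd1, Fzd9, Fzd6 and Fzd7 were the highest by TPM, Fzd10 and Fzd2 stood in the middle, and Fzd4, Fzd5, Fzd8 and Fzd3 stayed at or under 11.1 TPM in all libraries. Log2 fold changes were above 0 in 6 and below 0 in 4, with a median of 0.02, and 0 passed.

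Fzd4 encodes the Frizzled that in retinal endothelium receives the non-Wnt ligand norrin. It had 311.94, 431.78 and 406.93 estimated counts in ecko libraries (18.1, 23.9 and 22.8 CPM), against 437.85, 457.74 and 504.84 in control libraries (25.3, 26.1 and 28.6 CPM). All 3 ecko libraries lay below all 3 controls, with ecko 1 the lowest. The level was 21.6 ± 3.09 CPM in ecko and 26.7 ± 1.75 CPM in control skin (SD, n = 3 each), a log2 difference of -0.30 (SE 0.11, 95% interval -0.55 to -0.06, edgeR adjusted p = 0.234). Without ecko 1 the value was -0.19. The counts are not whole numbers, so part of the Fzd4 reads was shared with other genes by estimate.

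Fzd4 stood beside a lower level of endothelial genes in ecko skin. The 15 endothelial markers had a median log2 fold change of -0.73, all 15 lay below 0, and none of them was at 0 counts. Per library the markers summed to 340, 337 and 344 CPM in ecko and 562, 546 and 508 CPM in control libraries. Fzd4 had another order in each group, though the ecko sums were nearly equal, so their order says little. The sums of adipocyte, pericyte and smooth muscle, skeletal muscle and cartilage genes were also lower in all ecko libraries than in any control library. For pericyte and smooth muscle genes they were 857 to 903 CPM in ecko and 1070 to 1180 CPM in control libraries. Other sums were higher in all ecko libraries than in any control library. They were 25400 to 27900 against 22200 to 24900 CPM for differentiated keratinocyte genes and 189 to 233 against 163 to 178 CPM for melanocyte genes. Myeloid genes summed to 1930 to 2050 CPM in ecko and 1460 to 1920 CPM in control libraries, which nearly touched. The part of these differences in the Fzd4 value was not tested. Tspan12, the tetraspanin that helps FZD4 respond to norrin, had 15.3 ± 0.486 CPM in ecko and 19.1 ± 1.63 CPM in control skin (SD, n = 3 each), without overlap and without passing (log2 fold change -0.32, SE 0.09, edgeR adjusted p = 0.147). Ndp, the norrin gene, had 0.09 (SE 0.26), and Reck and Adgra2, whose products help endothelial cells sense Wnt7 ligands in the brain, had 0.17 (SE 0.10) and -0.10 (SE 0.08), all with overlapping groups.

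Fzd9 had 49.5, 40.3 and 38.2 CPM in ecko libraries and 52.5, 67.5 and 42.0 CPM in control libraries. Control 2 was far above the rest, and ecko 1 lay above control 3 (log2 fold change -0.34, SE 0.16, edgeR adjusted p = 0.346). Fzd1 had 130, 133 and 146 CPM in ecko and 116, 123 and 147 CPM in control libraries (log2 fold change 0.08, SE 0.09, edgeR adjusted p = 0.721), and its highest values came from library 3 of both groups. Fzd3, a receptor of the planar polarity branch, had 20.6, 18.4 and 23.7 CPM in ecko libraries and 18.9, 17.4 and 20 CPM in control libraries (log2 fold change 0.16, SE 0.11, edgeR adjusted p = 0.548), with overlapping groups.

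The other 6 Frizzled genes, Fzd2, Fzd5, Fzd6, Fzd7, Fzd8 and Fzd10, had log2 fold changes between -0.06 and 0.06. Their intervals were among the narrower ones. That of Fzd6, the closest relative of Fzd3, was -0.10 to 0.19. That of Fzd8 was -0.23 to 0.24 around 0.00, from 14.6 ± 0.577 CPM in ecko and 14.5 ± 1.63 CPM in control skin (SD, n = 3 each).

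Both LRP co-receptor genes had overlapping groups. Lrp5 had 154, 155 and 152 CPM in ecko libraries and 146, 162 and 162 CPM in control libraries. The ecko values lay inside the control range (log2 fold change -0.03, SE 0.06, edgeR adjusted p = 0.877), and the 95% interval of -0.16 to 0.11 was the narrowest of the 43 genes. Lrp6 had 171, 183 and 191 CPM in ecko and 148, 168 and 178 CPM in control libraries, with overlap (log2 fold change 0.14, SE 0.08, edgeR adjusted p = 0.419). By TPM Lrp5 lay above Lrp6 in each of the 6 libraries, at 61.3 to 70.1 against 39.8 to 53.5 TPM.

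Of the 7 secreted inhibitors 3 had values above 0 and 4 below, with a median of -0.07, and 0 passed. Wif1 alone made up 65.9% to 67.6% of their summed TPM in ecko libraries and 65.6% to 74.0% in control libraries. Wif1 had 8054, 8339 and 8276 counts in ecko libraries (467, 461 and 463 CPM), against 9019, 11657 and 7878 in control libraries (521, 663 and 447 CPM). The 3 ecko libraries were nearly alike, while the controls ranged from below to well above them (log2 fold change -0.23, SE 0.12, edgeR adjusted p = 0.414). Without control 2 the Wif1 value was -0.06.

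Control 2 was also high for cartilage. The summed level of 12 cartilage genes was 1972, 1897 and 1929 CPM in ecko libraries and 2184, 2783 and 2021 CPM in control libraries, in the same order of the controls as for Wif1 and Fzd9. This order was not particular to cartilage. The controls also had it for Sfrp4 and for the sums of adipocyte genes (1131, 1254 and 1084 CPM) and hair follicle bulge genes (3506, 3700 and 3479 CPM). The bulge sum includes Postn, which is also a dermal fibroblast gene. Of the 12 cartilage genes 1 fell and none rose, none was at 0 counts, and their median log2 fold change was -0.26. Their part in the Wif1 and Fzd9 values was not tested. Frzb, a secreted frizzled-related inhibitor first found in cartilage and outside the 43, had 98.2 ± 10.4 CPM in ecko and 125.9 ± 18.9 CPM in control skin (SD, n = 3 each), a log2 difference of -0.36 (SE 0.11, edgeR adjusted p = 0.172).

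**Figure D3:**
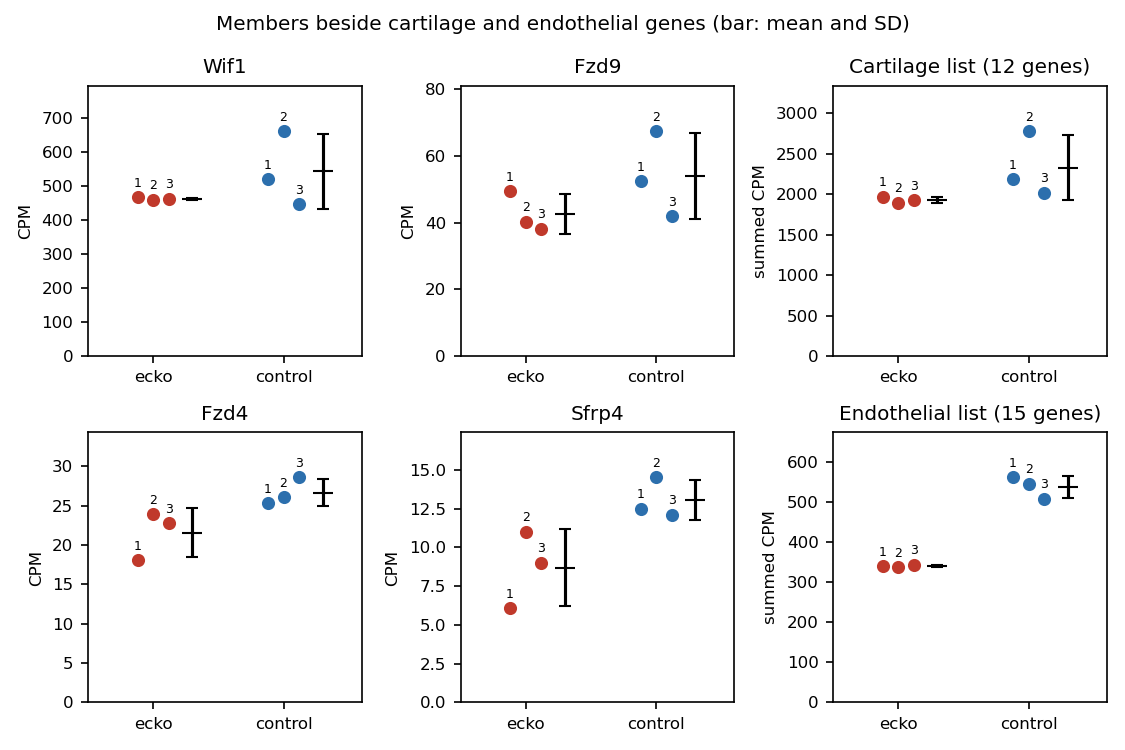
Levels per library (CPM, with the mean and SD at the right of each group; numbers are replicates) of Wif1, Fzd9, Fzd4 and Sfrp4 beside the summed CPM of 12 cartilage and 15 endothelial marker genes. Control 2 is the highest library for Wif1, Fzd9 and the cartilage sum, and the endothelial sum is 337 to 344 in ecko and 508 to 562 in control libraries.

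Sfrp4, a secreted frizzled-related protein gene, had the most negative log2 fold change of the 43. It had 105, 198 and 161 counts in ecko libraries (6.08, 11 and 9 CPM), against 217, 254 and 213 in control libraries (12.5, 14.5 and 12.1 CPM). All ecko libraries lay below all controls, and ecko 1 was the lowest by far. The level was 8.68 ± 2.45 CPM in ecko and 13 ± 1.26 CPM in control skin (SD, n = 3 each), a log2 difference of -0.58 (SE 0.18, 95% interval -0.99 to -0.17, edgeR adjusted p = 0.173). Without ecko 1 it was -0.38, and without ecko 2 it was -0.79.

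Sfrp4 is known to be secreted by fat and connective tissue, and markers of both were read beside it. The 12 adipocyte genes summed to 777 to 922 CPM in ecko libraries and 1080 to 1250 CPM in control libraries, with 4 that fell and none that rose, and ecko 1 was the lowest, as for Sfrp4. The 14 dermal fibroblast genes summed to 27000 to 31600 CPM in ecko and 28100 to 34500 CPM in control libraries, with none called. Ecko 1 was again the lowest, but the other libraries were not in the order of Sfrp4. The fibroblast sum was highest in ecko 3 and control 3 of their groups, and Sfrp4 was highest in ecko 2 and control 2. No gene of either list was at 0 counts, and their part in the Sfrp4 value was not tested.

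Dkk2, a Dickkopf gene of dermal mesenchyme, leaned the other way. It had 911, 973 and 1130 counts in ecko libraries (52.8, 53.8 and 63.2 CPM), against 715, 838 and 957 in control libraries (41.3, 47.7 and 54.3 CPM). Control 3 lay above ecko 1 and ecko 2, and library 3, from a female in both groups, was the highest in its group (log2 fold change 0.25, SE 0.11, edgeR adjusted p = 0.308). Dkk3 had 141, 139 and 153 CPM in ecko and 101, 139 and 141 CPM in control libraries, a low control 1 beside otherwise similar values (log2 fold change 0.19, SE 0.12, edgeR adjusted p = 0.497). Sfrp1, Sfrp2 and Sfrp5 had -0.07 (SE 0.07), -0.09 (SE 0.10) and 0.04 (SE 0.13), all with overlap.

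R-spondins and their LGR receptors gave no call among 7 genes, with a median log2 fold change of 0.05. Lgr4, the LGR receptor with the widest expression, was the highest by TPM and had 69.3, 72.6 and 77.4 CPM in ecko libraries and 76.0, 69.1 and 63.0 CPM in control libraries, with overlap (log2 fold change 0.08, SE 0.08, edgeR adjusted p = 0.716). Lgr5 and Lgr6, both markers of hair follicle stem cells, had 0.05 (SE 0.11) and 0.05 (SE 0.19). Lgr6 varied 1.8-fold among ecko libraries, from 60.0 to 108 CPM, and from 67.5 to 95.3 CPM among controls.

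Rspo2 had the highest log2 fold change of the 43 and the fewest reads. Its counts were 16, 26 and 18 in ecko libraries and 12, 16 and 15 in control libraries, and in CPM all ecko libraries (0.927, 1.44 and 1.01) lay above all controls (0.693, 0.911 and 0.851). The lowest ecko value and the highest control value were nearly equal. Ecko 1 and control 2 both had 16 counts, and in TPM ecko 1 (0.696) lay just under control 2 (0.698) (log2 fold change 0.46, SE 0.29, edgeR adjusted p = 0.510). Rspo1, the highest R-spondin by TPM, Rspo3 and Rspo4 had -0.10 (SE 0.13), -0.07 (SE 0.15) and 0.12 (SE 0.21), with overlap.

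Axin2, a scaffold of the complex that destroys beta-catenin and itself a widely used target of beta-catenin signalling, had 1143, 1119 and 1227 counts in ecko libraries (66.2, 61.9 and 68.6 CPM), against 1069, 1010 and 1030 in control libraries (61.7, 57.5 and 58.4 CPM). All ecko libraries lay above all controls, though ecko 2 and control 1 were almost equal. The level was 65.6 ± 3.39 CPM in ecko and 59.2 ± 2.23 CPM in control skin (SD, n = 3 each), a log2 difference of 0.15 (SE 0.06, 95% interval 0.0036 to 0.29, edgeR adjusted p = 0.313). An antisense gene overlaps its exons, and reads of the 2 could not be separated without strand.

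Tcf7, which encodes the DNA-binding factor TCF1 and is also a T cell gene, had 16.7, 17.4 and 17.8 CPM in ecko libraries and 17.0, 15.5 and 14.5 CPM in control libraries, with control 1 above ecko 1 (log2 fold change 0.15, SE 0.09, edgeR adjusted p = 0.510). Its counts are not whole numbers. The T cell list beside it held 10 genes, of which Cd8a was not tested. It summed to 49.8 to 55.4 CPM in ecko and 42.8 to 49.1 CPM in control libraries, with none of its genes at 0 counts in every library. Of its 9 genes tested, 2 rose (Foxp3 and Il7r) and none fell, while 5 had log2 fold changes below 0, the median was -0.03, and the T cell receptor complex genes Cd3d (-0.49, SE 0.17), Cd3g (-0.09, SE 0.10) and Cd3e (-0.03, SE 0.11) did not pass. Cd3d was lower in all ecko libraries than in any control library (edgeR adjusted p = 0.219). Ccr7 was higher in all ecko libraries than in any control library and did not pass (1.28, SE 0.33, edgeR adjusted p = 0.111). The list's part in the Tcf7 value was not tested. Lef1, the partner factor of hair matrix and dermal papilla, was low at 3 to 3.78 TPM and had -0.11 (SE 0.15, edgeR adjusted p = 0.793).

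**Figure D4:**
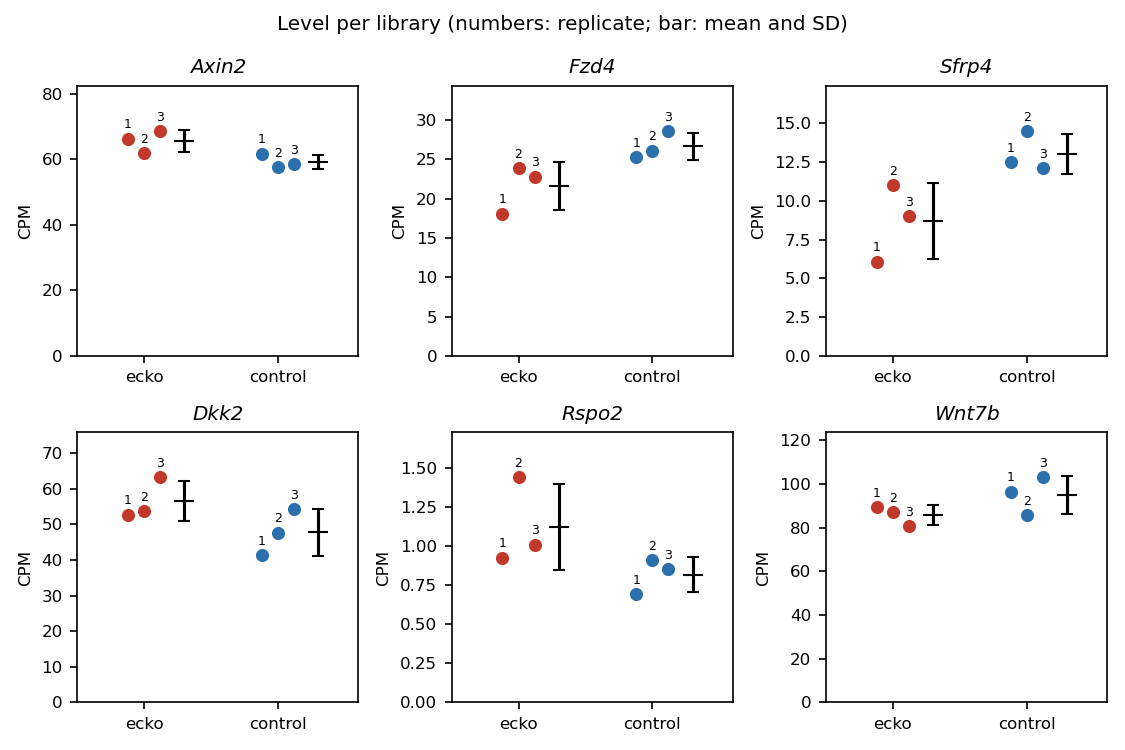
Levels per library (CPM on the vertical axis, starting at 0; points are libraries numbered by replicate, bars the mean and SD) of Axin2, Fzd4, Sfrp4, Dkk2, Rspo2 and Wnt7b. Ecko and control points are separate for Axin2, Rspo2, Fzd4 and Sfrp4 and overlap for Dkk2 and Wnt7b, and none of the 6 passed the test over all genes.

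Promoter windows are shown for the 3 of the 4 genes with an unadjusted p under 0.05 that the RefSeq promoter table holds, a choice made after their values were seen. Each window runs from 250 bases before to 50 bases after an annotated start site (GRCm38.p6, plus strand, 5′ to 3′). Capitals mark the letters CTTTGA or CTTTGT, searched on both strands as the core that TCF and LEF factors bind.
Axin2, chr11:108920099-108920398: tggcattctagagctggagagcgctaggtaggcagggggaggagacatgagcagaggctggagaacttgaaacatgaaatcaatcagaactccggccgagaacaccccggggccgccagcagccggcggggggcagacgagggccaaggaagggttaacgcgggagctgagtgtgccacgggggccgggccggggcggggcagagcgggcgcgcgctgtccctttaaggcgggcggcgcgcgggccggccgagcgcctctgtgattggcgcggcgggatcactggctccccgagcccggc
Dkk2, chr3:132085042-132085341: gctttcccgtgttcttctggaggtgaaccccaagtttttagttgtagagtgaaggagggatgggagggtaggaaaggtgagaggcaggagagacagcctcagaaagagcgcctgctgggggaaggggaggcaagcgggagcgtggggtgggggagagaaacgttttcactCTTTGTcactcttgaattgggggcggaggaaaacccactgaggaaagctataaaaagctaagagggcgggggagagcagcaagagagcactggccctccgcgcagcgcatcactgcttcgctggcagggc
Fzd4, chr7:89404116-89404415: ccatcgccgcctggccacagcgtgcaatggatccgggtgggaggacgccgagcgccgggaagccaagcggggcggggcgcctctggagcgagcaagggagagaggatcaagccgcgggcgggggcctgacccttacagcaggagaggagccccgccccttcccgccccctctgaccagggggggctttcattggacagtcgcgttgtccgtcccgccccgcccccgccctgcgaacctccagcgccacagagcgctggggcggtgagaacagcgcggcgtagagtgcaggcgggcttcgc
The letters occurred once, in the Dkk2 window, on the forward strand and starting at position -80 from the start site, and they were not found in the windows of Axin2 and Fzd4. Of all 32851 promoter windows 31.2% held them. The table had 35 windows for 28 of the 43 Wnt pathway genes, and 7 of these 35 windows (20%) held the letters. The Axin2 window lies inside the gene, whose span starts at chr11:108917828, so the bases before that start were not searched. A match is a description of letters and says nothing of binding.

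Genes of the pathway outside the 43 were read from 5 lists, which together held 87 genes tested. Of these, 1 fell and none rose, where 1.08% of all genes fell and 0.686% rose, and the median log2 fold change was 0.01. The gene that fell was Nkd2, a Dishevelled-binding inhibitor that beta-catenin signalling can raise. Nkd2 was at 34.1 ± 1.92 CPM in ecko and 44.7 ± 2.97 CPM in control skin (SD, n = 3 each), a log2 difference of -0.39 (SE 0.07, edgeR adjusted p = 0.0346), with no overlap between the groups. Its adjusted p was 0.0855 without control 1, 0.0542 without control 3, 0.153 without ecko 1, 0.159 without ecko 2 and 0.0550 without ecko 3.

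The 17 beta-catenin target genes had 10 values above 0 and 7 below. Beside Nkd2, Sox17 (-0.89, SE 0.19, edgeR adjusted p = 0.0528), an endothelial transcription factor gene that is also among the endothelial markers, and Cd44 (0.27, SE 0.06, edgeR adjusted p = 0.0575), an adhesion receptor gene, had the smallest p. Next by p were Tbx3 (-0.47, SE 0.15, edgeR adjusted p = 0.184) and Tnfrsf19 (0.24, SE 0.08, edgeR adjusted p = 0.187), which did not pass. The direct targets Sp5 (0.49, SE 0.20), Notum (0.22, SE 0.16), Znrf3 (0.10, SE 0.08), Rnf43 (0.11, SE 0.14) and Nkd1 (-0.10, SE 0.11) did not pass either.

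Of the 26 cytoplasmic and nuclear genes 13 lay above 0 and 13 below, and none passed. Ctnnb1, the beta-catenin gene, was at 602 ± 12.4 CPM in ecko and 595 ± 18 CPM in control skin (SD, n = 3 each), a log2 difference of 0.02 (SE 0.06). The corepressor genes Tle2 (-0.37, SE 0.11, edgeR adjusted p = 0.155) and Tle3 (0.15, SE 0.06, edgeR adjusted p = 0.248) and the kinase gene Csnk1a1 (0.12, SE 0.06, edgeR adjusted p = 0.361) had the smallest p in that list.

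None passed among the 20 membrane and secreted partners, where Wls, which carries Wnt ligands to the cell surface, had -0.01 (SE 0.05). Porcn, which attaches their lipid, had 0.00 (SE 0.10). After Tspan12, the smallest p in that list were those of Celsr2 (0.15, SE 0.07) and Reck. None passed among the 7 genes tested from the list of other secreted antagonists. Of these, Frzb, the Dickkopf-like gene Dkkl1 (-0.24, SE 0.08, edgeR adjusted p = 0.176) and Igfbp4 (-0.11, SE 0.07) had the smallest p. None passed among the 21 genes of the branch without beta-catenin, led by Camk2a (-0.40, SE 0.14, edgeR adjusted p = 0.210), Dact3 (-0.22, SE 0.10) and Mapk9 (-0.12, SE 0.06).

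Hair follicle genes were read because many of the 43 genes are expressed there. The 15 genes of growing hair matrix and shaft, of which 9 were counted deeply enough to test, summed to 73.5 to 94.0 CPM in ecko libraries and 75.3 to 108 CPM in control libraries, with none called and all 9 overlapping. The 10 bulge genes summed to 3550 to 4110 CPM in ecko and 3480 to 3700 CPM in control libraries, with none called. Of these 10 genes, 4 had log2 fold changes above 0 and 6 below, with a median of -0.06. A large part of the sum was Postn, which is also on the dermal fibroblast list. Postn was at 2014 ± 179 CPM in ecko and 1635 ± 154 CPM in control skin (SD, n = 3 each). Of the 9 dermal papilla and sheath genes, 1 fell, Sox18, which is also an endothelial gene.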

How the data were processed

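Poly(A) RNA was selected from Trizol extracts of ear skin and sequenced from randomly primed cDNA, per the labels' protocols. The table deposited by the authors holds expected counts (estimated read counts) per gene and library, unscaled, and 10.5% of its values were not whole. Per the submitters' processing notes, RSEM 1.3.1, HISAT2 2.2.1, Bowtie2 2.4.5 and GRCm38.p6 were used, with no role or strand setting given. RSEM splits reads that match several genes, which left fractional counts in Fzd4, Wnt4 and Tcf7. Exons of 9 of the 43 genes overlap an antisense gene in GENCODE M21, and the limit given for Axin2 holds for each. They are Axin2, Fzd5, Fzd6, Lef1, Rspo3, Sfrp2, Wnt5a, Wnt7b and Wnt11.

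Counts were rounded, filtered with filterByExpr (minimum count 10; 14866 genes kept), scaled by TMM and tested with the edgeR 4.0.16 quasi-likelihood test (R 4.3.3), with genotype as the term. SE was the log2 fold change divided by the square root of F. TPM used GENCODE M21 exon-union lengths, found for 96.6% of genes. No 2 libraries were duplicates: replicate pairs varied 4.89 to 14.8 times more than sampling alone gives. The test was checked on simulated data.

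The members, lists and tests were chosen with earlier results of these data known. Values per library were given for genes that passed, the 15 smallest p among the 43 and the highest TPM in each role. List genes were named if they passed or had the 3 smallest p, and others (such as Ndp, Adgra2, Sp5, Notum, Ctnnb1, Wls and Porcn) after their values were seen. Alternatives were DESeq2 1.42.0, limma-voom (limma 3.58.1), upper-quartile and RLE factors, 2 other filters, a sex term, a replicate block, leaving out each library, a threshold of 0.1 and a stricter minimum for the 43 genes. The male libraries alone were added after the data were seen.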

Additional observations from a re-analysis of the deposited data

How the results depend on the processing

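The number of Wnt pathway genes called was 0 higher and 0 lower under all 17 alternatives, including a threshold of 0.1. The stricter minimum removed none of the 43 genes, so it repeated the main test and could not differ from it. The smallest adjusted p among them over these alternatives was 0.0840 (Sfrp4, DESeq2). The signs of the 18 genes given per library held wherever a value could be had, except that the male pups alone gave -0.0317 for Lgr4 and 0.0044 for Lrp5. Rspo2 was too low to be tested with the filter of 1 CPM in 3 libraries. The counts over all genes did move. DESeq2 gave 195 higher, the threshold of 0.1 gave 182 higher and 269 lower, and the libraries of male pups gave 91 lower. Leaving out single libraries gave 22 to 165 higher and 34 to 242 lower, against 102 and 160 with all 6. With the replicate block, 63 genes were higher, and it called 0 Wnt pathway genes. Same-numbered libraries correlated at 0.053, 0.048 and 0.172 in their deviations from the group means, and differently numbered ones at -0.102 to 0.06. The highest value was that of library 3, female in both groups. The labels name no pairs, and the main test did not take the numbers as pairs. The widest intervals were those of Wnt3a and Rspo2, which had at most 100 and 26 counts per library.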
